A study of Rattus norvegicus with 2 samples.

Results

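The genes described here are those of the cell division cycle and of chromosome structure: cyclins A, B, D and E, the cyclin-dependent kinases (CDKs), the MCM helicase, the E2F and retinoblastoma families, the CDC6, CDC7, CDC20, CDC25 and CDC45 groups, the SMC and SMC5/6 complexes, the centromere proteins named by a letter, and *Slbp*, *Top2a*, *Mki67* and *Pcna*. They were taken by the form of their gene symbol from the platform annotation. Of 31042 non-control probe sets, 136 matched, which stand for 91 of the 14217 genes measured. A further 4 probe sets carried a matching symbol among several and were left out. The form of the name also took in 9 genes that do not belong to these families. Among them are *Cdc73*, a subunit of the PAF1 transcription elongation complex, and *Cdk5r1*, an activator of a neuronal kinase. They were kept as members and are given apart.

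The study asked how reproducible global expression values are. Total RNA from rat lung was hybridised to 2 Affymetrix expression arrays, 1 handled by each of 2 experimenters, called experimenter 1 and experimenter 2 after the numbering of the titles. Both arrays share tissue, column purification and biotin labelling, and the labels name no treatment for either. Strain, sex, age, the number of animals and whether both experimenters worked from 1 lung or 1 RNA are facts the sources used here do not give. With 1 array per experimenter no value has a replicate error, no test was possible, and every difference below describes these 2 arrays. Values are log2 of the RMA signal, the robust multi-array average that merges the probes of a probe set, and differences are experimenter 2 minus experimenter 1. A gene is represented by its brightest probe set, the one with the highest mean of both arrays, unless another is named. Over all non-control probe sets the values ran from 2.26 to 14.51, the median of the means was 6.31 with quartiles of 4.40 and 8.197, and the median difference was -0.052. Of 10 lung markers listed, 8 were matched, and all 8 lay above the upper quartile by the mean of both arrays. They ran from *Foxj1* of ciliated cells (8.15 and 8.30) to *Scgb1a1* of club cells (14.37 and 14.44). The difference between the 3' and 5' probe sets of beta-actin, which is larger in shortened RNA, was 2.15 for experimenter 1 and 2.71 for experimenter 2. For hexokinase it was 1.13 and 1.36, and for GAPDH 0.30 and 0.26. The part of RNA quality in the differences below was not tested.

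Cells commit to division when D-type cyclins with CDK4 and CDK6, and then cyclin E with CDK2, phosphorylate the retinoblastoma proteins and free the E2F transcription factors. E2F proteins switch on the genes of DNA replication in S phase, among them those of the MCM helicase. Genes of G2 and mitosis, such as those of the B cyclins, are controlled through a promoter element called the cell cycle genes homology region (CHR), bound by the DREAM and MYB-MuvB complexes, often beside CCAAT boxes bound by NF-Y. Most cells of an adult lung are not dividing, but the age of the animals is not given here. Which cells of the tissue these transcripts came from was not measured.

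Because genes of S phase and of mitosis are known for different transcriptional control, the bases before their starts are shown for a pair of each. *Mcm5* and *Mcm6*, subunits of the replicative helicase, stand for S phase, and *Cdk1*, the mitotic kinase, and *Ccnb2*, its cyclin B2 partner, stand for mitosis. *Smc2*, a condensin subunit, and *Rbl1*, the retinoblastoma relative p107, are shown because they are among the members that differed most between the arrays. The sequences are from RefSeq on rat assembly GRCr8, each the 250 bases before the annotated start, 5' to 3' on the gene's strand. *Mcm5* is at chr19:13488563-13488812 (plus strand), *Mcm6* at chr13:42404353-42404602 (minus strand), *Cdk1* at chr20:19265043-19265292 (plus strand), *Ccnb2* at chr8:79981659-79981908 (minus strand), *Smc2* at chr5:71602155-71602404 (plus strand) and *Rbl1* at chr3:166289377-166289626 (minus strand). Capitals mark matches, on either strand, to the E2F motif (TTTCCCGC, TTTCGCGC, TTTGCCGC or TTTGGCGC), the CHR (TTTGAA) and the CCAAT box (CCAAT).
Mcm5: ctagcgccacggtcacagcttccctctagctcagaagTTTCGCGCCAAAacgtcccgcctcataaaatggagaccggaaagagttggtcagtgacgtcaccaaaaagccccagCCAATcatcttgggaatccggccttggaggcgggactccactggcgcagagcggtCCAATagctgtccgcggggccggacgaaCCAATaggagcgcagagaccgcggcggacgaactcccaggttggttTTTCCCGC
Mcm6: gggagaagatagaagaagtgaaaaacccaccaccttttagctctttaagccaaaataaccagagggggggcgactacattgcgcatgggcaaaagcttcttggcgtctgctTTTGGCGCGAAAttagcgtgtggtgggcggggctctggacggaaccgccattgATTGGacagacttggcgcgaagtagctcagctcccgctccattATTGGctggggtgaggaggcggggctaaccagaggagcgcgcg
Cdk1: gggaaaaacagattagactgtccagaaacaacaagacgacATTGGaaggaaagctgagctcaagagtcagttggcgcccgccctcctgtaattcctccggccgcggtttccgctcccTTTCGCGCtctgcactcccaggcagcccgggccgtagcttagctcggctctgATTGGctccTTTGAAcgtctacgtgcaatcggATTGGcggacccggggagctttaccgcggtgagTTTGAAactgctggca
Ccnb2: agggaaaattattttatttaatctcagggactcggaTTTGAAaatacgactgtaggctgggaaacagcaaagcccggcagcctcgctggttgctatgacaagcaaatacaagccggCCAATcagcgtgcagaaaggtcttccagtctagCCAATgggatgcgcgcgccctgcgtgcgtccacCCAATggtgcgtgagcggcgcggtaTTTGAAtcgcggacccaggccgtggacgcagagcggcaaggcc
Smc2: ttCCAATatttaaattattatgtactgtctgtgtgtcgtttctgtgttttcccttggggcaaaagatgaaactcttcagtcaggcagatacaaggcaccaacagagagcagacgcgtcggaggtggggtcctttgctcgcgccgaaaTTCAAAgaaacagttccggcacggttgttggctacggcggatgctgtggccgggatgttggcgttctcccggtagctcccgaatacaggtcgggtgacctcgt
Rbl1: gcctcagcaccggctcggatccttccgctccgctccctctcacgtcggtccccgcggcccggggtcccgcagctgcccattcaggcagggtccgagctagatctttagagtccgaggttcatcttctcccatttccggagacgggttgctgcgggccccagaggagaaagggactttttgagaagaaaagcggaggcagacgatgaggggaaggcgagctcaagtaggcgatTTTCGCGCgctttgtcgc

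In *Mcm5* and *Mcm6* an E2F match on each strand overlaps the other, so that the capitals run on without a break. *Mcm5* has its pair at positions -213 and -209, counted from the start site as 0 to the first base of the match, and another match at -8. *Mcm6* has its pair at -139 and -135. *Ccnb2* holds 3 CCAAT boxes in the same orientation whose first bases are 33 bases apart (-134, -101 and -68), with a CHR before them at -214 and another after them at -43. *Cdk1* has CHR matches at -72 and -16, CCAAT boxes at -210, -81 and -49, and the 1 E2F match (-133) found among the M phase members. *Smc2* has a CHR at -103 and a CCAAT box at -248, and *Rbl1* has an E2F match at -18.

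The windows searched held 300 bases each, 250 before and 50 after the start, and 74 of the 91 member genes had one. The M phase list used here has 13 measured genes (*Ccna2*, *Ccnb1*, *Ccnb2*, *Cdk1*, *Cdc20*, *Cdc25b*, *Cenpa*, *Cenpe*, *Cenpf*, *Smc2*, *Smc4*, *Top2a* and *Mki67*), and the S phase list has 15 (*Mcm2* to *Mcm7*, *Mcm10*, *Cdc45*, *Pcna*, *Slbp*, *E2f1*, *E2f8*, *Ccne1*, *Ccne2* and *Cdc25a*). An E2F match was present in 7 of the 11 S phase windows and 1 of the 12 M phase windows, against 2.14% of all 33469 windows and 3.49% of those of genes on the arrays. A CHR match was present in 9 of 12 M phase windows and 2 of 11 S phase windows, against 18.3% of all windows and 12.8% of those of array genes. CCAAT was found in 12 of 12 M phase and 8 of 11 S phase windows, against 37.5% of all. A CHR together with a CCAAT box was found in 9 M phase windows and 0 S phase windows, against 7.41% of all windows. Of the 13 CHR matches in M phase windows 11 began within the 150 bases before the start, and of the 3 in S phase windows 0 did.

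The same contrast was present in genes of both phases that are no members. For the S phase genes outside the membership (*Tyms*, *Fen1*, *Dut* and the like) an E2F match was found in 18 of 36 windows and a CHR in 4. For the M phase genes outside it (*Aurkb*, *Bub1*, *Plk1* and the like) an E2F match was found in 0 of 32 windows and a CHR in 20. The lists were written by hand from genes known for each phase, and E2F and CHR control is part of what is known of such genes. The contrast and its recurrence therefore describe the lists chosen and test nothing. These counts describe letters in a fixed window. A match is not a shown binding site, and a window without one says nothing of the factor.

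**Figure D1:**
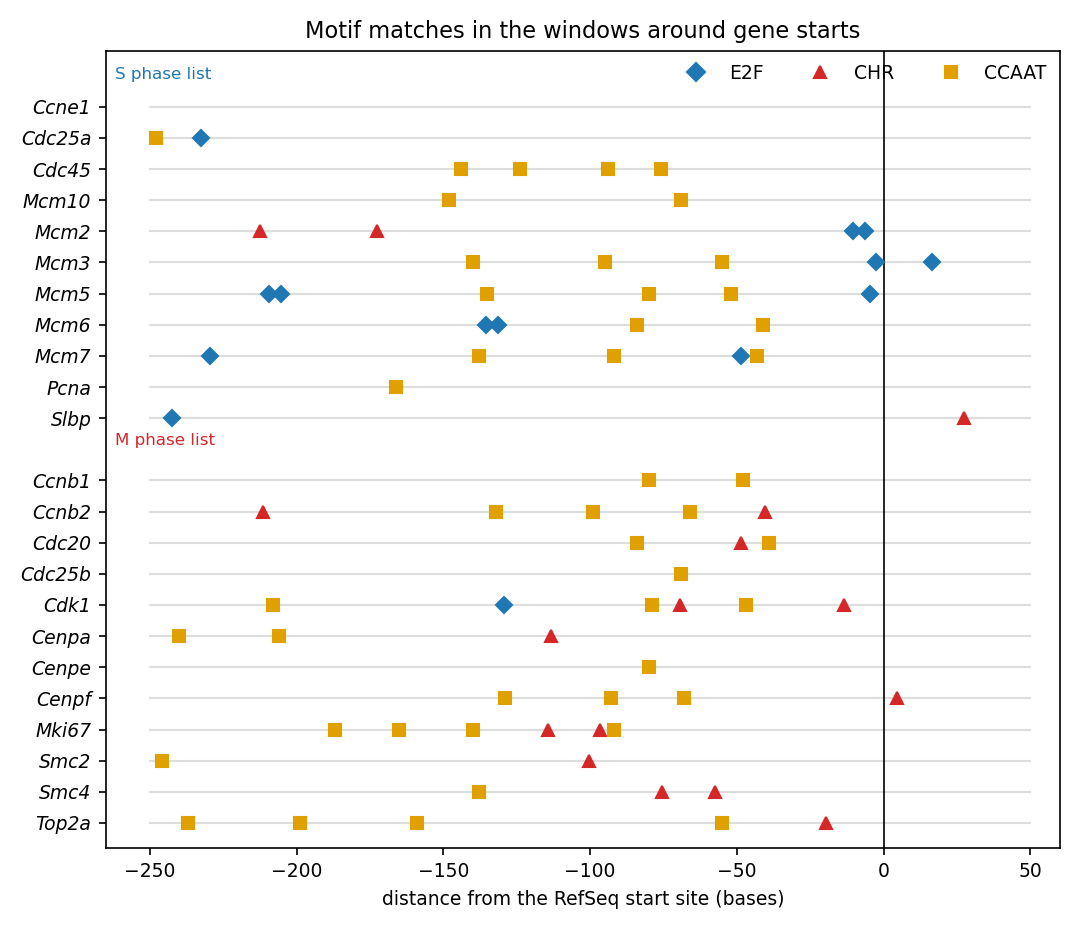
Positions of E2F, CHR and CCAAT matches in the windows of the 11 S phase and 12 M phase member genes with a RefSeq window; the x axis is the distance in bases from the annotated start site, each marker is the middle of 1 match on either strand, and each grey line is 1 window. E2F matches (diamonds) lie in 7 S phase windows and 1 M phase window. CHR matches (triangles) lie in 9 M phase windows, mostly within the 150 bases before the start, and in 2 S phase windows.

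M phase genes lay lower in the arrays' range than S phase genes. By the mean of both arrays, 9 of 15 S phase and 6 of 13 M phase genes reached the median of all probe sets, against 67.2% of all genes. The median level was 6.59 for the S phase list and 6.14 for the M phase list, against 7.58 for all genes and 7.22 for all 91 members. The highest S phase value was that of *Pcna*, the DNA polymerase clamp, at 10.74 and 10.72, and the highest M phase value was that of *Cdc25b*, a phosphatase that activates CDK1, at 7.87 and 8.13. Above the upper quartile of all probe sets were 2 S phase genes and 0 M phase genes. Signals of different probe sets also carry the affinity of their probes, so these levels place each list in the arrays' range and do not rank transcripts. In tissue RNA, fewer dividing cells and less RNA per cell cannot be told apart. The 36 M phase genes that are no members also had a lower median level (6.001) than the 37 S phase genes that are none (6.47).

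**Figure D2:**
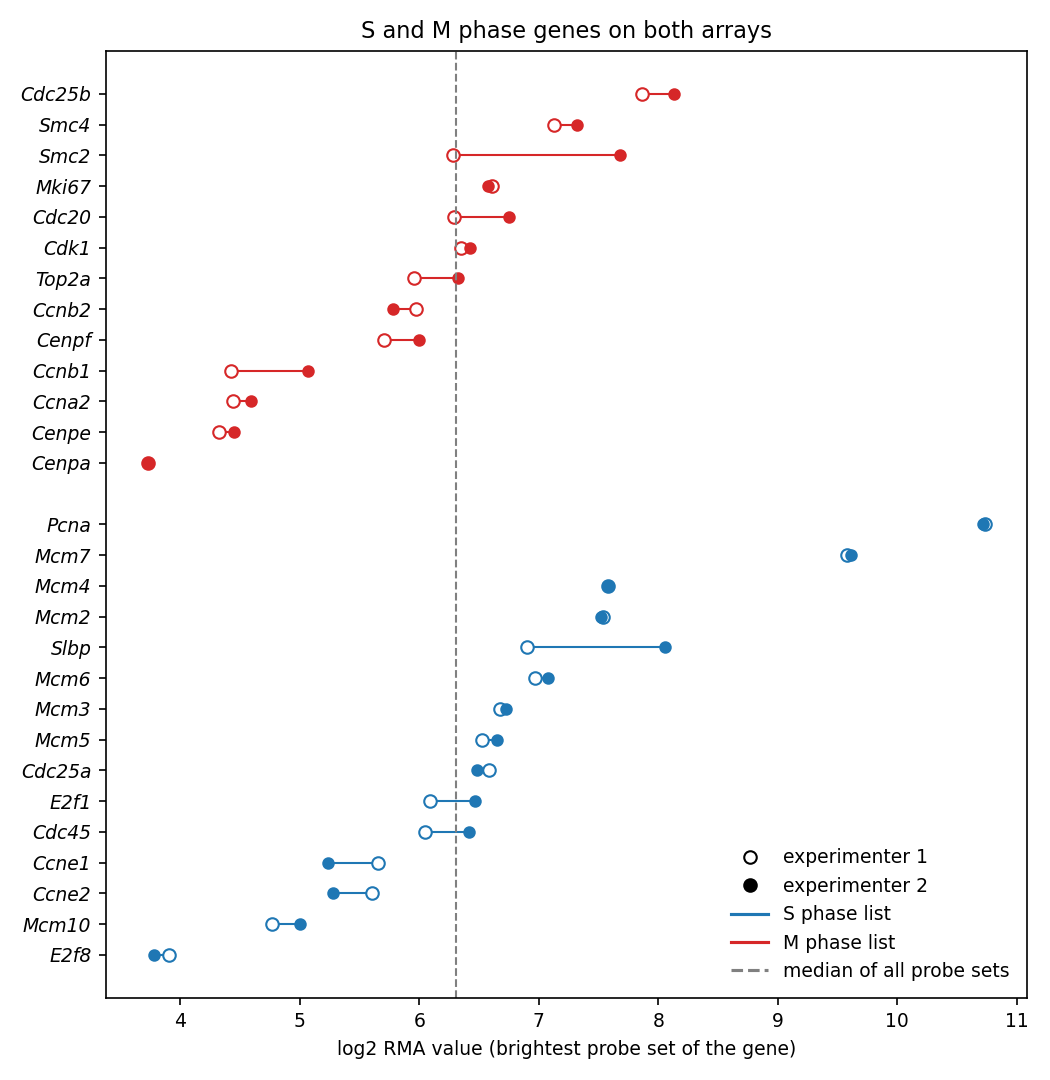
Log2 RMA values of the 15 S phase (blue) and 13 M phase (red) member genes on the array of experimenter 1 (open circles) and experimenter 2 (filled circles), with a line joining both and a dashed line at 6.31, the median of all probe sets. *Pcna* and the helicase genes barely move between the arrays, *Slbp* and *Smc2* shift the furthest to the right, and most M phase genes shift to the right.

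Within the S phase list, the 6 subunits of the MCM2-7 helicase, which unwinds DNA at the replication fork, gave almost the same values on both arrays. *Mcm2* measured 7.53 for experimenter 1 and 7.52 for experimenter 2, *Mcm4* 7.58 and 7.58, and *Mcm7* 9.58 and 9.61. *Mcm3* measured 6.67 and 6.72, *Mcm5* 6.52 and 6.65, and *Mcm6* 6.97 and 7.07. All 6 differed by at most 0.15, a bound chosen after the values were seen, and 47.4% of all genes did so. *Pcna* differed by -0.020. Their differences were between -0.015 and 0.12 as deposited, and with each array centred on its median all 6 helicase genes were slightly higher for experimenter 2.

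The other S phase genes were less close. *Mcm10*, which joins the helicase at origin firing, measured 4.76 and 4.998, and *Cdc45*, a subunit of the active helicase, 6.05 and 6.41. *E2f1*, an activator of S phase genes, measured 6.09 and 6.47, and *E2f8*, a repressor of the same family, 3.91 and 3.78. The E cyclins, which drive entry into S phase, were both lower for experimenter 2 by their brightest probe sets, *Ccne1* at 5.65 and 5.24 and *Ccne2* at 5.61 and 5.27. The other probe set of *Ccne2* differed by 0.27, in the opposite direction. *Cdc25a*, the phosphatase that activates CDK2, measured 6.58 and 6.48. *Slbp*, which binds the stem-loop of histone mRNAs, measured 6.90 and 8.05, which is 2.22-fold. In all, 9 of 15 S phase genes were higher for experimenter 2 and the median difference was 0.029, where 41.1% of all 14217 genes were higher and their median was -0.049. Without *Slbp* the S phase median was 0.017.

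The M phase genes were mostly higher on the array of experimenter 2, 11 of 13, with a median difference of 0.19. Of all genes 41.1% were higher, with a median of -0.049. *Ccnb1*, cyclin B1, measured 4.42 and 5.07, *Ccna2*, cyclin A2, 4.44 and 4.59, and *Cdk1* 6.35 and 6.42. *Cdc20*, an activator of the anaphase-promoting complex, measured 6.29 and 6.75. Condensin, the complex that compacts mitotic chromosomes, was represented by *Smc2* at 6.28 and 7.68 and by its partner *Smc4* at 7.13 and 7.32. *Top2a*, the topoisomerase that untangles sister chromatids, measured 5.95 and 6.33. *Mki67*, the coat protein of mitotic chromosomes used as a marker of proliferation, measured 6.61 and 6.58, and *Ccnb2* 5.97 and 5.78: these were the 2 that were lower. The centromere genes of the list were *Cenpa*, the centromeric histone H3 variant (3.73 and 3.73), *Cenpe*, a kinetochore motor (4.32 and 4.45), and *Cenpf*, a kinetochore protein (5.71 and 5.99). Only 1 of the 13, *Smc2*, was past 2-fold, and without it the median was 0.17.

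The S phase median difference was thus 0.16 below the M phase one (-0.16). With each array centred, after removal of a loess trend and after quantile normalization it was between -0.15 and -0.17. It was -0.099 with the mean over the probe sets of a gene, and -0.076 without the E cyclins, *Cdc25a* and the E2F genes of the S phase list and *Smc2* and *Smc4* of the M phase list. It turned to 0.14 by the second brightest probe set, which only 5 S phase and 4 M phase genes had. Among genes that are no members the S phase median was instead 0.031 above the M phase one: 21 of 37 S phase genes were higher for experimenter 2 with a median of 0.062, and 20 of 36 M phase genes with a median of 0.031. Of these, the highest mean was that of *Dut*, the dUTPase (9.61 and 9.93), in the S phase set and of *Bub3*, a spindle checkpoint protein (9.98 and 10.03), in the M phase set. The largest differences were those of *Hells*, a chromatin remodeler (3.28 and 4.45), and *Birc5*, survivin (5.32 and 5.74). With members and others joined, the medians were 0.048 over 52 S phase genes and 0.065 over 49 M phase genes. No test of the difference between the phases was possible with 1 array per experimenter. Markers of other cells that could come with lung tissue were also looked at. For erythroid precursors 5 of 6 were measured, with 3 higher for experimenter 2 and a median difference of 0.088. *Alas2*, the only 1 with a mean above 6.31, was lower (8.79 and 8.36), as was *Ahsp* (6.19 and 5.95). The 3 higher were dimmer: *Klf1* (4.77 and 4.86), *Epor* (5.45 and 5.75) and *Rhag* (3.80 and 3.95). For B, T and plasma cells 7 of 9 were measured, with 2 higher and a median difference of -0.13. The part of such cells in the M phase differences was not tested. The list of thymocyte and germinal centre markers was not analysed here.

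The D cyclins, which start the cycle in response to growth signals, were all 3 lower on the array of experimenter 2. So were 8349 of all 14217 genes, whose median difference was -0.049. *Ccnd1* measured 10.73 and 10.63, *Ccnd2* 9.72 and 9.30, and *Ccnd3* 9.52 and 9.34. They were lower under each of the 3 other scalings too, although another probe set of *Ccnd1* at a mean of 10.49 differed by 0.077. *Cdk4*, their kinase partner, measured 9.63 and 9.55, and *Cdk6*, the other, 4.11 and 4.28. *Cdk2*, the partner of cyclin E, measured 7.51 and 7.63, and *Cdk7*, the kinase that activates the others, 9.01 and 8.72. The testis-enriched cyclin A1 gene *Ccna1* measured 5.47 and 6.08, below the median of all probe sets on both arrays.

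The E2F and retinoblastoma genes had 4 of 10 higher for experimenter 2 and a median difference of -0.074. Over all genes 41.1% were higher, with a median of -0.049. *Rbl1* stood out at 6.32 and 7.46, which is 2.197-fold. Its relatives *Rb1*, the retinoblastoma gene, and *Rbl2*, which encodes p130, the form found in resting cells, measured 8.77 and 9.13 and 9.65 and 9.60. *E2f6*, a repressor, measured 8.03 and 7.66. Of the partners of these proteins, which are no members, 4 of 7 were higher, and the differences ran from -0.56 to 0.99. *Tfdp1*, the dimerisation partner of E2F, measured 10.12 and 10.41, and *Lin9*, a subunit of the MuvB core, 5.05 and 6.04. Of 8 CDK inhibitors 4 were higher, against the same 41.1% of all genes. *Cdkn1b*, which encodes p27, measured 11.72 and 11.79, and *Cdkn2c*, which encodes p18, 8.64 and 8.28.

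The SMC genes encode the ring-forming ATPases of cohesin, condensin and the SMC5/6 complex. They were listed with the *Nsmce* genes, which encode other subunits of the SMC5/6 complex. Of these 11 members together, 5 were higher for experimenter 2 with a median of -0.047, against 41.1% and -0.049 over all genes. The range was the widest of the roles listed, from -0.43 (*Nsmce1*) to 1.77 (*Nsmce3*). *Smc3*, the cohesin subunit, measured 10.92 and 10.98. *Nsmce3*, a subunit of the SMC5/6 complex, measured 6.23 and 8.001, which is 3.42-fold and the largest difference of the 14217 genes. The other measured subunits of its complex differed by between -0.43 and 0.25: *Nsmce1* measured 9.15 and 8.72, *Smc6* 7.85 and 7.58, *Smc5* 8.85 and 9.09, *Nsmce2* 7.73 and 7.68, and *Nsmce4a* 7.77 and 7.66. *Smc4*, the partner of *Smc2* in condensin, differed by 0.19 where *Smc2* differed by 1.396. Of 14 cohesin and condensin genes that are no members, 7 were higher, and the differences ran from -0.64 to 0.71. *Rad21*, the cohesin kleisin, measured 11.22 and 11.25, and *Wapl*, the cohesin release factor, 8.41 and 9.12.

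Of 17 centromere genes, 8 were higher for experimenter 2, the median was -0.020, and 5 had means that reached the median of all probe sets. Over all genes 41.1% were higher, the median was -0.049, and 67.2% reached that level. *Cenpb*, which binds a DNA box in centromeric repeats, measured 8.68 and 8.71, *Cenpx* 7.85 and 7.38, and *Cenpm* 5.79 and 5.45. *Cenpw* measured 3.24 and 4.19 at a level below the lower quartile. Of the 13 other CDKs, 10 differed by at most 0.15, as did 47.4% of all genes. That bound was chosen after the values were seen. *Cdk14* measured 9.93 and 10.002, *Cdk13*, a kinase of RNA polymerase II, 8.60 and 8.07, *Cdk10* 7.27 and 7.65, and *Cdk16* 9.27 and 9.04. *Mcm8* and *Mcm9*, helicase relatives in DNA repair, measured 4.45 and 4.70, and 5.24 and 5.83. Among the 9 genes that only share the form of the name, 7 differed by at most 0.15, against the same 47.4% of all genes. *Cdc73* measured 10.06 and 10.53, *Cdk5r1* 3.22 and 3.41, and *Cdk5rap3* 7.51 and 7.37.

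**Figure D3:**
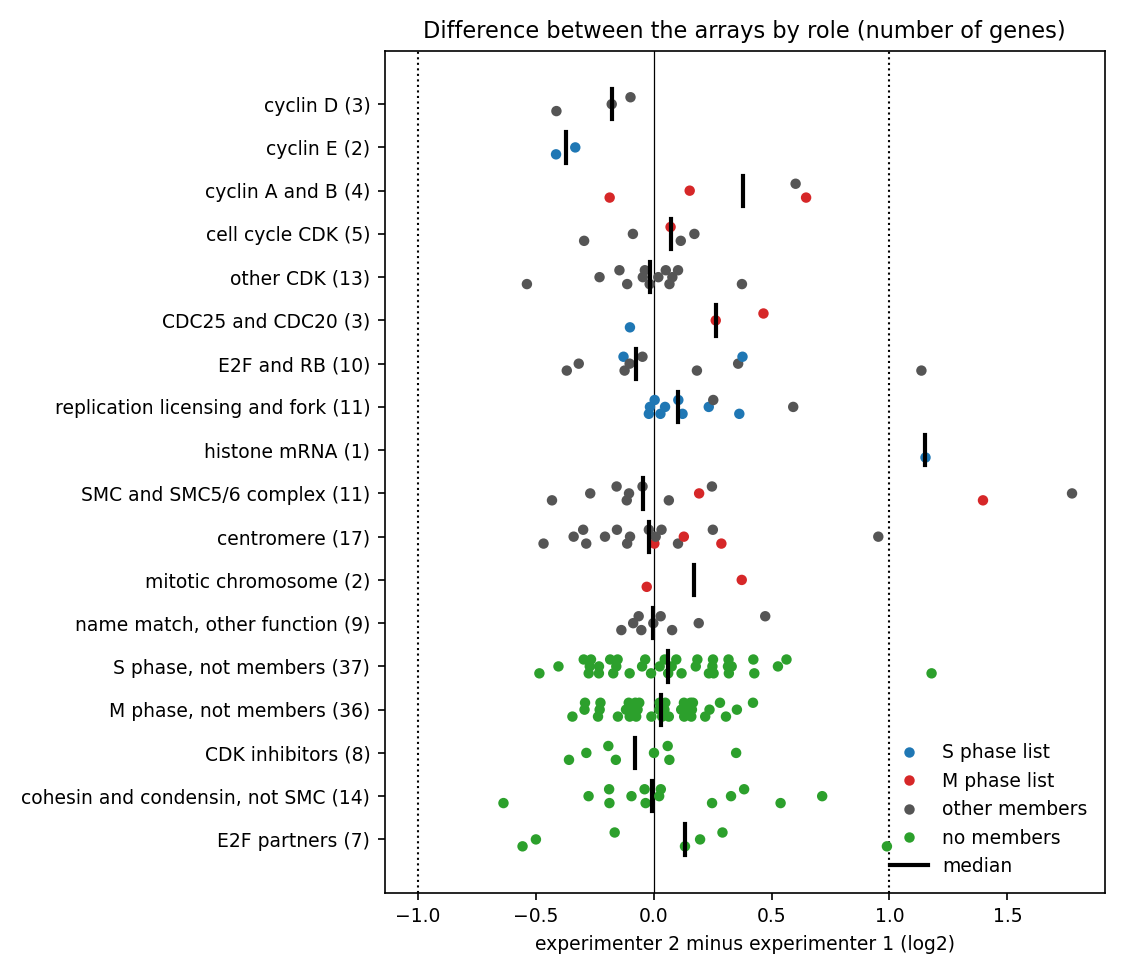
Difference between the arrays (experimenter 2 minus experimenter 1, log2) for each member gene by role (S phase blue, M phase red, others grey) and for 5 lists of pathway genes that are no members (green); each point is 1 gene by its brightest probe set, the thick bars are medians, the dotted lines mark 2-fold, and the numbers of genes are in parentheses. The 3 D and 2 E cyclins lie below 0 by these probe sets (others of *Ccnd1* and *Ccne2*, not plotted, differed by 0.077 and 0.27), the SMC and SMC5/6 row reaches from -0.43 to 1.77, and the S and M phase genes that are no members have medians of 0.062 and 0.031.

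A rule of size took the place of a test: a gene was counted when it was at least 2-fold apart with a mean no lower than the median of all probe sets. Of the 91 members 59 passed the level filter. Counted were 4 of the 59, or 6.78%, all higher for experimenter 2, where 0.262% of the 9558 genes that passed the filter were that much higher and 0.0209% that much lower. The count was 2 with the mean over probe sets and 0 by the second brightest probe set, which 30 genes had. The 4 were *Nsmce3*, *Smc2*, *Slbp* and *Rbl1*, and they act in different steps (DNA repair, chromosome compaction, histone mRNA processing and E2F repression). Earlier results of these data were known when the membership was drawn up, so the share is a description. Among the 59, none lay between 1.5-fold and 2-fold: the same 4 passed the lower threshold, which 1.98% of all filtered genes passed upward and 0.816% downward. The counted members nearest to the threshold of 1 on the log2 scale were *Slbp* and *Rbl1* at 1.15 and 1.14, and the next of the 59 were *Cdc73* and *Cdc20* at 0.47. Below the level filter 4 further members lay between 1.5-fold and 2-fold, *Cenpw* at 0.95, *Ccnb1* at 0.65, *Ccna1* at 0.60 and *Mcm9* at 0.59. In the other direction the largest differences were -0.54 for *Cdk13* and -0.47 for *Cenpx*. Over all 91 members 46 (50.5%) were higher for experimenter 2, where 41.1% of all 14217 genes were. The members' median difference was 0.0034, against -0.049 over all genes. The SD of the differences was 0.38, against 0.26 over all genes. The median absolute difference was instead slightly smaller for the members, at 0.145 against 0.159 over all genes.

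**Figure D4:**
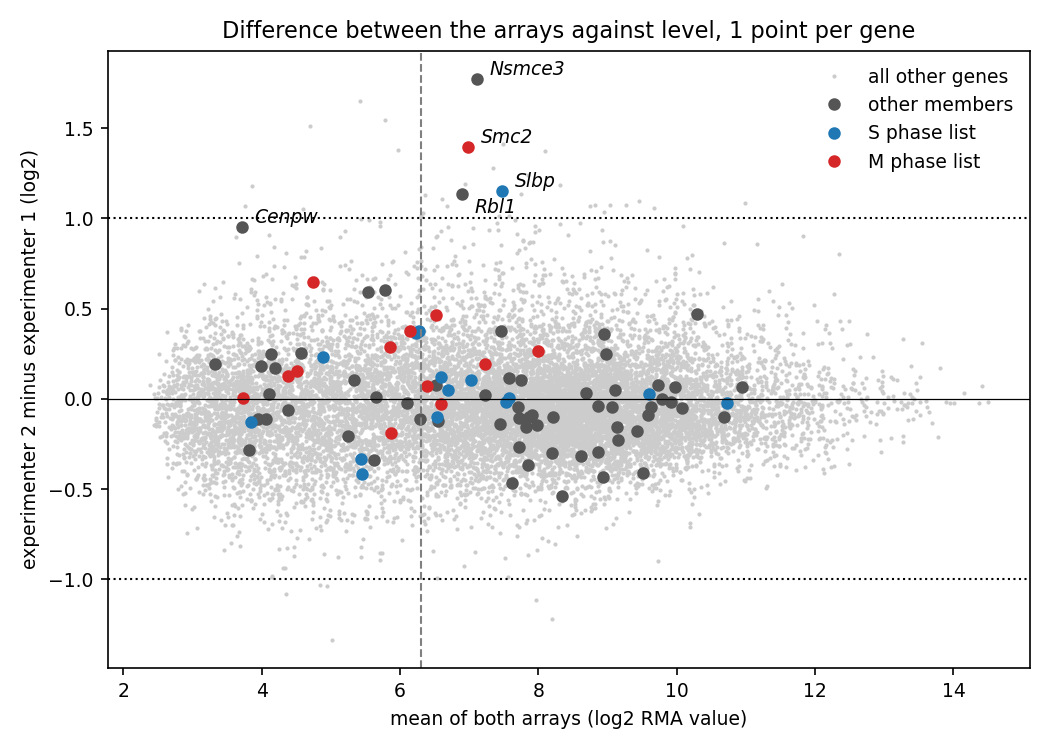
Difference between the arrays (log2) against the mean of both arrays (log2 RMA value) for all genes, 1 point per gene, with S phase members in blue, M phase members in red, other members in dark grey and all other genes in light grey; dotted lines mark 2-fold and the dashed line the median level of 6.31. *Nsmce3*, *Smc2*, *Slbp* and *Rbl1* lie above the upper dotted line at means between 6.89 and 7.48, and no member lies below the lower one.

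Several probe sets for the same gene offered a check within each array. Of the 91 member genes 30 had at least 2. The second brightest differed in the direction of the brightest for 15 of the 30, where 53.3% of all 4525 such genes had the same direction. Among members whose second probe set was itself at or above the median level, 1 of 5 had the same direction. The share over all genes at that level was not counted. The second probe set of *Nsmce3*, at a mean of 5.76, gave a difference of 0.093 where the first gave 1.77. The brightest probe set of *Slbp*, whose identifier marks probes shared with other transcripts, differed by 1.15, and its others, at means of 2.85 and 2.44, by 0.27 and 0.20. *Smc2* and *Rbl1* had 1 probe set each and so had no such check. The 5 probe sets of *Cdc20* ranged from -0.46 to 0.47, the 4 of *Cdc45* from -0.32 to 0.43, and those of *Cenpw* from -0.35 to 0.95. For *Cdk10* the brightest gave 0.37 and the second, at a mean of 6.31, -0.48. *Smc3* (0.065 and 0.044), *Smc4* (0.19 and 0.11) and *Mcm10* (0.23 and 0.11) were closer.

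Even probe sets built on the same sequence record differed in direction. Of 5 such pairs among the members 4 had opposite signs, while over all genes 119 of 231 pairs had the same sign. For *Cdc20* 1 pair of probe sets gave 0.47 and -0.46, at means of 6.52 and 5.15. For *Cdc45* the pair gave 0.36 and -0.32 at means of 6.23 and 5.86, and for *Top2a* it gave 0.37 and -0.17 at means of 6.14 and 5.56. The other opposite pair, also of *Cdc20*, differed by 0.024 in all at means near the lowest on the array (2.96 and 3.11), and the pair of *Cdk13* gave -0.54 and -0.32. The directions of *Cdc20*, *Cdc45* and *Top2a* in the S and M phase lists therefore rest on which probe set was taken, and so does that of *Ccne2*, at -0.33 and 0.27 by its 2 probe sets.

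**Figure D5:**
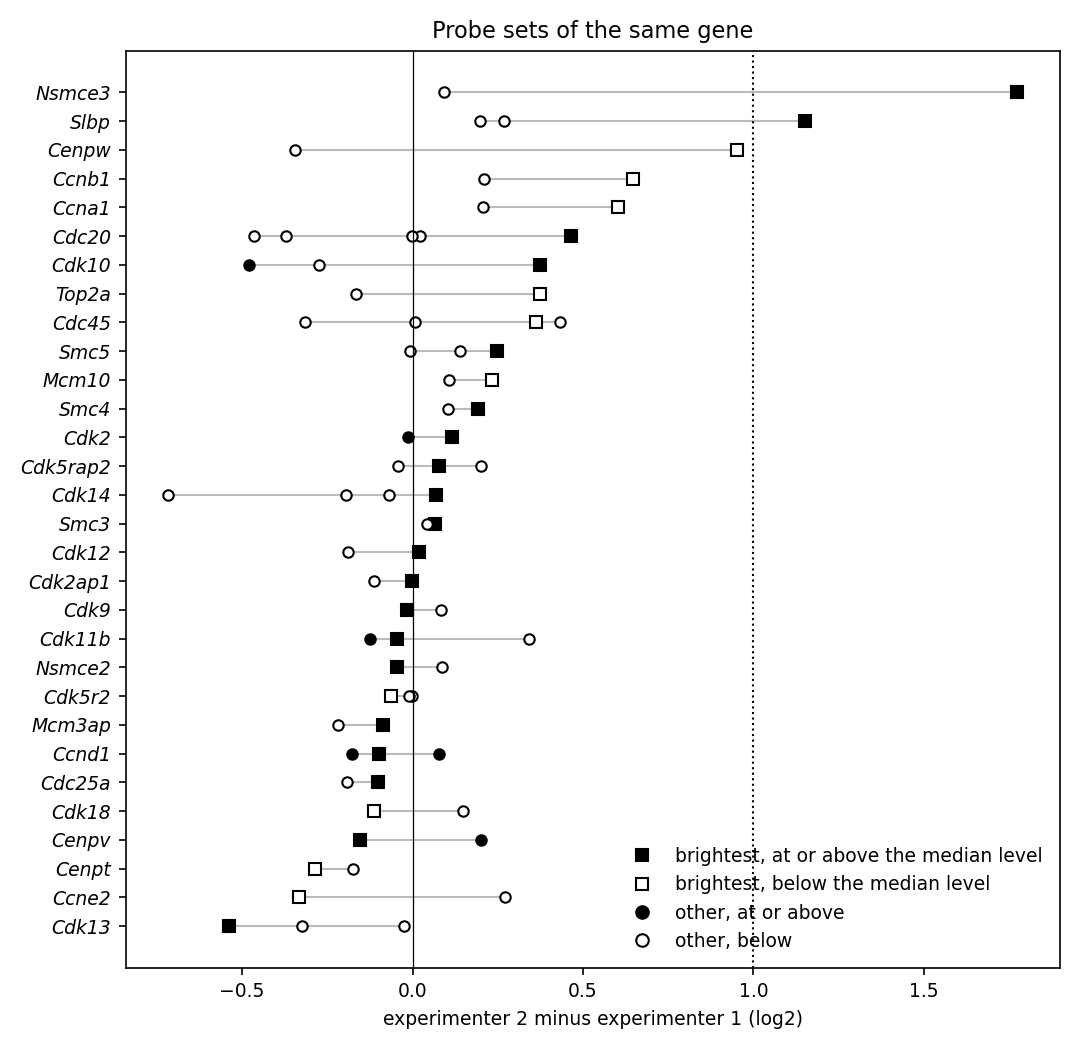
Differences between the arrays (log2) of every probe set of the 30 member genes with at least 2, 1 row per gene; squares are the brightest probe sets, circles the others, filled markers have means no lower than 6.31, and the dotted line marks 2-fold. *Nsmce3* and *Slbp* pass 2-fold by 1 probe set each, and for 15 of the 30 genes the second brightest lies on the other side of 0.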

How the data were processed

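Rat lung RNA was run on 2 arrays, 1 per experimenter. The deposited values are log2 signals that the authors obtained by RMA, per the submitters' processing notes. Its version and which arrays were normalized as a set are points not given in the sources used. A log base of 2 was inferred from how far the values reach. No detection calls came with them. The array medians were 6.32 and 6.28, and the values were used as deposited. Members were matched on the platform annotation's symbol, and symbols were checked through Entrez identifiers against the RefSeq gene table of assembly GRCr8, which changed 0 of the 136. The members and lists were chosen with earlier results of these data known.

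With 1 array per experimenter, their number limits the precision and no test was made. Genes named were those past 2-fold at or above the median level, all S and M phase members, and in each other role the gene with the highest mean and up to 3 with the largest absolute differences; for lists of genes that are no members, 1 of each kind. *Smc5*, *Nsmce2* and *Nsmce4a* were added after their values were seen. The measured erythroid, B, T and plasma cell markers were all named, outside that rule. Of the listed genes, 2 of the S phase (*Cdc6*, *Cdc7*) and 1 of the M phase (*Cdc25c*) were not analysed here. Motifs were counted in RefSeq windows of 300 bases matched by Entrez identifier. The alternatives were median centring, loess (fraction 0.3), quantile normalization, other probe set choices, thresholds, level filters and list memberships. Scripts used Python 3.11.15, numpy 2.4.6, pandas 2.3.3, statsmodels 0.14.6 and matplotlib 3.10.9 and were tested on simulated data.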

Additional observations from a re-analysis of the deposited data

How the results depend on the processing

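No paired analysis was possible because the study holds a single array per person, which also leaves no array that could be dropped. A median was said to move when it changed by more than 0.1. Centring, loess, quantile normalization, no filter on level, the 1.5-fold threshold and updated symbols each left 4 member genes higher, and 0 were lower under all 9 alternatives; without probe sets whose identifiers mark shared probes 3 were higher. With the mean over probe sets 2 were higher, and by the second brightest probe set 0 of 30. The S phase median difference stayed above 0 under its 9 alternatives, from 0.0047 to 0.11. By the second brightest probe set the M phase median was -0.030 and the S minus M difference 0.14, from 5 and 4 genes; under the 8 other alternatives the M phase median was above 0 and the difference below it, down to -0.199, and without *Smc2* and *Smc4* and the cyclin E, *Cdc25a* and E2F genes it was -0.076. The median of all members was -0.0040 by the second brightest probe set, -0.00094 without probe sets of shared probes and -0.020 at or above the median level, so its sign has no fixed direction. With the mean over probe sets the median levels were 6.28 for the S phase and 5.85 for the M phase list. Signal over background limits the dim members, since no detection calls were used here. The causes of these changes were not tested.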
